A study of Mus musculus with 9 samples.

Results

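A group of 21 genes stood high in the lacrimal glands of young C57BL/6J mice and lower in every library of 12 and 24 months, and is called here the early lasting fall. The members were chosen from the deposited log2 values: a protein coding gene entered when its lowest 2-month library lay at least 0.5 log2 units above the highest of the 6 older libraries and its 2-month mean was at least 5. Of 54232 genes in the table, 10737 protein coding genes reached that mean and 29 of those (0.27%) passed the gap. The secretoglobin, exocrine gland peptide and solute carrier genes, the fibrinogen genes, Pnliprp1 and Camk2b were left out by name, which removed 8 genes and left the 21. The same gap in the opposite direction was met by 303 protein coding genes. Because the levels at 2 months against the older ages chose the members, those differences are given below as a description, with no test. Only the comparison of 24 with 12 months was tested, since the choice did not use the difference between these ages. The choice did use the highest of the 6 older libraries and favours genes with little spread within an age. The test estimates that spread over all ages together, so its p-values for members may not be wholly independent of the choice.

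The RNA came from whole lacrimal glands, which make the watery part of tears, of C57BL/6J females fed ad libitum under a 12-hour light cycle. Each age, 2, 12 and 24 months, had 3 libraries of the same strain, sex and housing, and the youngest were titled 8W. Whether a library came from 1 mouse or from several is not in the labels, so a p-value here reflects only how far these libraries differ among themselves, which may be technical. In whole-gland RNA, fewer cells of a type and less RNA per cell cannot be told apart.

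The libraries held 40516863 to 42573877 counts, and the filter on low counts kept 14958 genes for testing, all 21 members among them. The 10 acinar markers, such as Aqp5, Ltf and Lyz1, summed to 175165 to 257062 CPM (counts scaled to the library's size after TMM normalization) in every library, with Prol1 alone at 0 at 2 and 12 months. At each age 1 library held by far the most transcripts of salivary gland, and at 2 months replicate 2 held some as well. The 10 salivary markers summed to 0.573, 72.8 and 860 CPM in the 2-month replicates 1 to 3. The salivary gene Bpifa2 had 8, 1829 and 22857 counts in the 2-month replicates 1 to 3, 178, 14351 and 32 at 12 months and 201, 8709 and 8 at 24 months. Markers of other cells moved with age as well: the 10 B cell markers summed to 0.499 to 1.13 CPM at 2 months against 22.4 to 214.8 at 12 months and 14.7 to 28.0 at 24 months. The 10 T cell markers summed to 1.64 to 2.59, 10.1 to 39.9 and 12.5 to 24.7 CPM at the 3 ages, the 10 macrophage markers to 88.2 to 128.7, 275.1 to 358.0 and 336.3 to 487.8 CPM, and the 10 adipocyte markers to 2.38 to 3.59, 12.5 to 39.6 and 11.9 to 33.0 CPM. Duct cell markers summed to 238.4 to 274.2, 187.0 to 228.8 and 195.0 to 230.2 CPM, so that their 2-month libraries lay above all the older ones. Myoepithelial markers summed to 193 to 239 CPM at 2 months, 142 to 154 at 12 months and 207 to 215 at 24 months, with the 12-month libraries below all others. Fibroblast markers summed to 77.8 to 130.9, 88.8 to 106.1 and 140.4 to 219.6 CPM. The 10 markers listed for the Harderian gland summed to 207.9 to 217.9, 240.7 to 260.8 and 285.4 to 373.6 CPM, higher at each later age without overlap. Skeletal muscle markers summed to 1.02 to 1.64 CPM at 2 months and 2.04 to 2.44 at 24 months, but to 31.3, 2.68 and 61.9 in the 12-month replicates 1 to 3, where the muscle actin gene Acta1 had 341, 17 and 985 counts against at most 5 in any other library. The part of these cells in the members' lower levels was not tested.

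Glands grow after birth through dividing cells and insulin-like growth factor signals. Of the members, stanniocalcin 2 is a secreted protein that blocks the protease which frees insulin-like growth factors from their binding proteins, and IGF2BP2 is an RNA binding protein that holds the Igf2 messenger among others. CDK6 pairs with D-type cyclins to let a cell leave the resting state, and PLK1 is a kinase of mitosis. Others belong to energy and lipid chemistry: PRKAA2 is a catalytic subunit of AMP-activated protein kinase, the cell's sensor of low energy, PHYH starts the breakdown of branched fatty acids in the peroxisome, and UQCRB is a small subunit of complex III of the respiratory chain. Raet1e encodes a cell surface ligand of the NKG2D receptor of natural killer cells and T cells.

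Promoters are shown for 4 members that hold 1 of the strings searched, AGAACA, and then for a pair of members that share sequence; these were picked after the matches were seen. RefSeq promoter windows of the GRCm38.p6 build, 250 bases before to 50 after the annotated start, were matched by symbol for 15 of the 21 members. Their median GC content was 65.3% and their median number of CpG dinucleotides 25, beside 52.7% and 7 over all 27025 promoters. Unlike the members, the 27025 were not limited to protein coding genes with a 2-month mean of at least 5. They are therefore not a matched background, here or for the strings below, and whether the differences come from that rule was not tested. The string AGAACA, a half-site of the glucocorticoid and androgen receptors, occurred on either strand in 7 of the 15 (46.7%), beside 19.0% of all promoters of the same length. In percentage points this was the largest difference among the 14 strings searched, and a match is a string of letters, not a site shown to be bound. The 7 were Phyh, Ucma, Gabrr2, Cdk6, Cyp2b19, Plk1 and E030030I06Rik. In 4 of them the string, or its reverse complement TGTTCT, is set in capitals here, each window written 5′ to 3′ on the gene's own strand: Phyh (chr2:4918746-4919045 on the plus strand), Ucma (chr2:4975872-4976171 on the plus strand), Plk1 (chr7:122159185-122159484 on the plus strand) and Cyp2b19 (chr7:26756892-26757191 on the plus strand).
Phyh: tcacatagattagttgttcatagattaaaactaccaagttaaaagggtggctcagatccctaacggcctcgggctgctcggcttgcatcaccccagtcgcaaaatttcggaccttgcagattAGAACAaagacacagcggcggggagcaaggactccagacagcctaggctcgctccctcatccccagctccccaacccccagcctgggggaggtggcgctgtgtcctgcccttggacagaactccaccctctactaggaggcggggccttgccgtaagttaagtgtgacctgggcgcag
Ucma: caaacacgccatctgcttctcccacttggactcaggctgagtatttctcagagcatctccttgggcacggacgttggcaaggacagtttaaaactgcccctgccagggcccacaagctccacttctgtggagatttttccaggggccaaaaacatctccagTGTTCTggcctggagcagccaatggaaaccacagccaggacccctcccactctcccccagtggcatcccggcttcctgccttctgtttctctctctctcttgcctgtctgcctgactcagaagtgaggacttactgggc
Plk1: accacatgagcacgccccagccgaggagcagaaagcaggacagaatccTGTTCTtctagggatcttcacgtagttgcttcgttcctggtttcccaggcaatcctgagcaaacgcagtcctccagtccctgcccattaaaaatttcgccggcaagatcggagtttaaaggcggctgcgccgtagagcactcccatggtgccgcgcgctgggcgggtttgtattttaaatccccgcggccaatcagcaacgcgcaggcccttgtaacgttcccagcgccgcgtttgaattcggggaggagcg
Cyp2b19: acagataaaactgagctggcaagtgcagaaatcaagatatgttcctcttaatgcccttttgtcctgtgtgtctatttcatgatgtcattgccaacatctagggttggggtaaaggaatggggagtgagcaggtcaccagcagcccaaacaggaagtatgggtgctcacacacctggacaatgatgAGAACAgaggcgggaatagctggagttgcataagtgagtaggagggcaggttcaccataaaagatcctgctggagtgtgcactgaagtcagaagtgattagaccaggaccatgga
Of the other strings, each searched on both strands, GGGCGG (a GC box) was in 7 of 15 windows (46.7%) beside 35.9% of all, CCAAT in 5 (33.3%) beside 37.9%, TTTGAA, a cell cycle element, in 3 (20%) beside 18.1%, and TATAAA in 2 (13.3%) beside 14.2%. The last 3 of these shares lay close to the background.

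The windows of Cdk6 (chr5:3343643-3343942 on the plus strand) and E030030I06Rik (chr10:22149221-22149520 on the minus strand) held both TATAAA matches and are shown because they share sequence. Aligned with BLAST, 182 columns of the 2 windows matched at 86.8% identity. Capitals mark the 158 bases that are identical in that alignment.
Cdk6: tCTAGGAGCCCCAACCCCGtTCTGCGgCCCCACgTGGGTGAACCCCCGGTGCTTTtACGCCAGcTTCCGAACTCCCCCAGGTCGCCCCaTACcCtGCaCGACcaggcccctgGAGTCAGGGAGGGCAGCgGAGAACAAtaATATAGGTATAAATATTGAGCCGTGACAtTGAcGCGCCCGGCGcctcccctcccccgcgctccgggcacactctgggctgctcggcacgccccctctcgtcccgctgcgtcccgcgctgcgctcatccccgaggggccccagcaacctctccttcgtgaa
E030030I06Rik: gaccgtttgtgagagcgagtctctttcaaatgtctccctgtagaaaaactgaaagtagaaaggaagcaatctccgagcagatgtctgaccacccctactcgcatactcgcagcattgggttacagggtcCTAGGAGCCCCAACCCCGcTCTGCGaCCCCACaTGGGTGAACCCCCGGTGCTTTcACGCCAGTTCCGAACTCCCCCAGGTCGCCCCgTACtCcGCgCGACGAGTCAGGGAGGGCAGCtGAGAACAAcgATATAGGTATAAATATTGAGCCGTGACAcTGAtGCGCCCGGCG
The likeness went on into the transcripts, where GENCODE models of the 2 genes aligned over 687 columns at 84.6% identity on the same strand. So these 2 members, on chromosomes 5 and 10, were not independent in sequence, and the AGAACA match lay inside the shared stretch in both. No alignment between them reached 95% identity over 100 bases, and the sources used here do not say how the counting placed read pairs that fit both genes. Each did share such stretches with other genes elsewhere. E030030I06Rik aligned, among others, to Hjurp over 155 bases at 96.1%, with 7584 counts over all libraries beside 1233. Cdk6, with 1491 counts, aligned to many genes, such as Gm16505 over 289 bases at 95.5% (104 counts) and Tmem234 over 127 bases at 95.3% (40338 counts). The ratio of Cdk6 to E030030I06Rik counts was 1.41, 1.53 and 1.08 in the 2-month replicates, 1.32, 1.15 and 1.21 at 12 months and 1.16, 0.925 and 0.893 at 24 months. The ratio was not fixed, and the ranges of both older ages overlapped that of 2 months.

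Among the secreted and matrix genes, Stc2 (ENSMUSG00000020303, chr11:31357307-31370074, minus strand) had the widest gap of all members, 2.30 log2 units. It stood at 3.16, 3.32 and 4.89 CPM at 2 months, 0.452, 0.470 and 0.25 CPM at 12 months and 0.236, 0.619 and 0.403 CPM at 24 months. All 3 young libraries were several times above every older one, and the 2 older ages overlapped. The edgeR estimate against 2 months was -3.27 (SE 0.39) at 12 months and -3.16 (SE 0.39) at 24 months on the log2 scale, or 9.61-fold and 8.93-fold lower. The counts behind it were 127, 113 and 173 in the 2-month libraries, 20, 23 and 11 in those of 12 months and 9, 27 and 20 in those of 24 months. Stc2 was highest in the library richest in salivary transcripts at all 3 ages; without those 3 libraries its log2 ratios to 2 months were -3.21 and -3.34, beside -3.28 and -3.18 with them. Its only relative, Stc1, had means of 0.813, 1.24 and 1.19 CPM at the 3 ages, with estimates of 0.61 and 0.56, both above 0.

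Csgalnact1 (ENSMUSG00000036356, chr8:68356781-68735146, minus strand), whose enzyme adds the first galactosamine of a chondroitin sulfate chain, came next with a gap of 2.10. Its level was 1.97, 1.91 and 1.92 CPM at 2 months, 0.136, 0.409 and 0.432 CPM at 12 months and 0.157, 0.252 and 0.403 CPM at 24 months. The 3 young libraries differed from each other by less than those of any other member, with a coefficient of variation of 1.60%, and the older libraries were spread widely and overlapped. Estimates against 2 months were -2.56 (SE 0.46) at 12 months and -2.80 (SE 0.47) at 24 months. The other enzyme for the same step, Csgalnact2, had means of 2.68, 3.07 and 2.94 CPM. Of the 11 other genes listed for chondroitin sulfate synthesis, 10 were tested, and none was as far below 0 as Csgalnact1: their estimates ran from -0.26 to 1.68 at 12 months and from -0.36 to 1.04 at 24 months.

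Ucma (ENSMUSG00000026668, chr2:4976122-4985748, plus strand) encodes a matrix protein rich in gamma-carboxyglutamate that is best known from cartilage. Levels of Ucma were 20.9, 22.6 and 12.2 CPM at 2 months, 4.09, 3.82 and 6.29 CPM at 12 months and 5.74, 7.54 and 1.81 CPM at 24 months. The 2-month replicate 3 was the lowest young library at 12.2 CPM and the highest older one was at 7.54 CPM, while replicate 3 of 24 months was the lowest of all. Estimates were -1.97 (SE 0.40) at 12 months and -1.89 (SE 0.40) at 24 months, and without the 3 salivary-rich libraries the log2 ratio at 24 months went from -1.88 to -2.52. Pcsk4, a proprotein convertase known mainly from germ cells, stood at 1.94, 1.94 and 1.41 CPM at 2 months, 0.971, 0.899 and 0.773 CPM at 12 months and 0.471, 0.481 and 0.745 CPM at 24 months. Its gap of 0.53 was the smallest of the 21. All 3 libraries of 24 months lay below all 3 of 12 months.

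Igdcc4 (ENSMUSG00000032816, chr9:65101486-65137940, plus strand), a cell surface protein of the immunoglobulin superfamily, had its lowest libraries at 24 months. It stood at 3.99, 4.02 and 4.58 CPM at 2 months, 1.47, 1.31 and 1.18 CPM at 12 months and 0.917, 0.252 and 0.101 CPM at 24 months. The 3 ages were separate, without overlap, although the 24-month libraries were far apart, with a coefficient of variation of 103%. Gabrr2, which encodes a rho subunit of the GABA receptor channel, had a like order at lower counts: 52, 98 and 50 in the 2-month libraries, 38, 27 and 31 in those of 12 months and 16, 5 and 5 in those of 24 months. The 3 ages were again separate in CPM. Estimates for Gabrr2 were -1.40 (SE 0.49) at 12 months and -3.16 (SE 0.56) at 24 months, and those for Igdcc4 were -1.67 (SE 0.48) at 12 months and -3.35 (SE 0.53) at 24 months. Raet1e (ENSMUSG00000053219, chr10:22158569-22374139, plus strand) had levels of 7.82, 9.54 and 7.55 CPM at 2 months, 3.37, 3.88 and 4.77 CPM at 12 months and 2.85, 2.43 and 2.46 CPM at 24 months, and the 3 ages did not overlap. Its transcripts align over 1437 bases at 96.0% identity to those of Raet1d, a ligand gene that overlaps its locus on the same strand. Raet1d has 1441 bases of exon. It held 15 counts in all 9 libraries beside 1792 of Raet1e, and how the counting placed reads that fit both genes is not known. Klrk1, which encodes the NKG2D receptor, was at 0.459, 0.853 and 0.632 CPM.

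**Figure D1:**
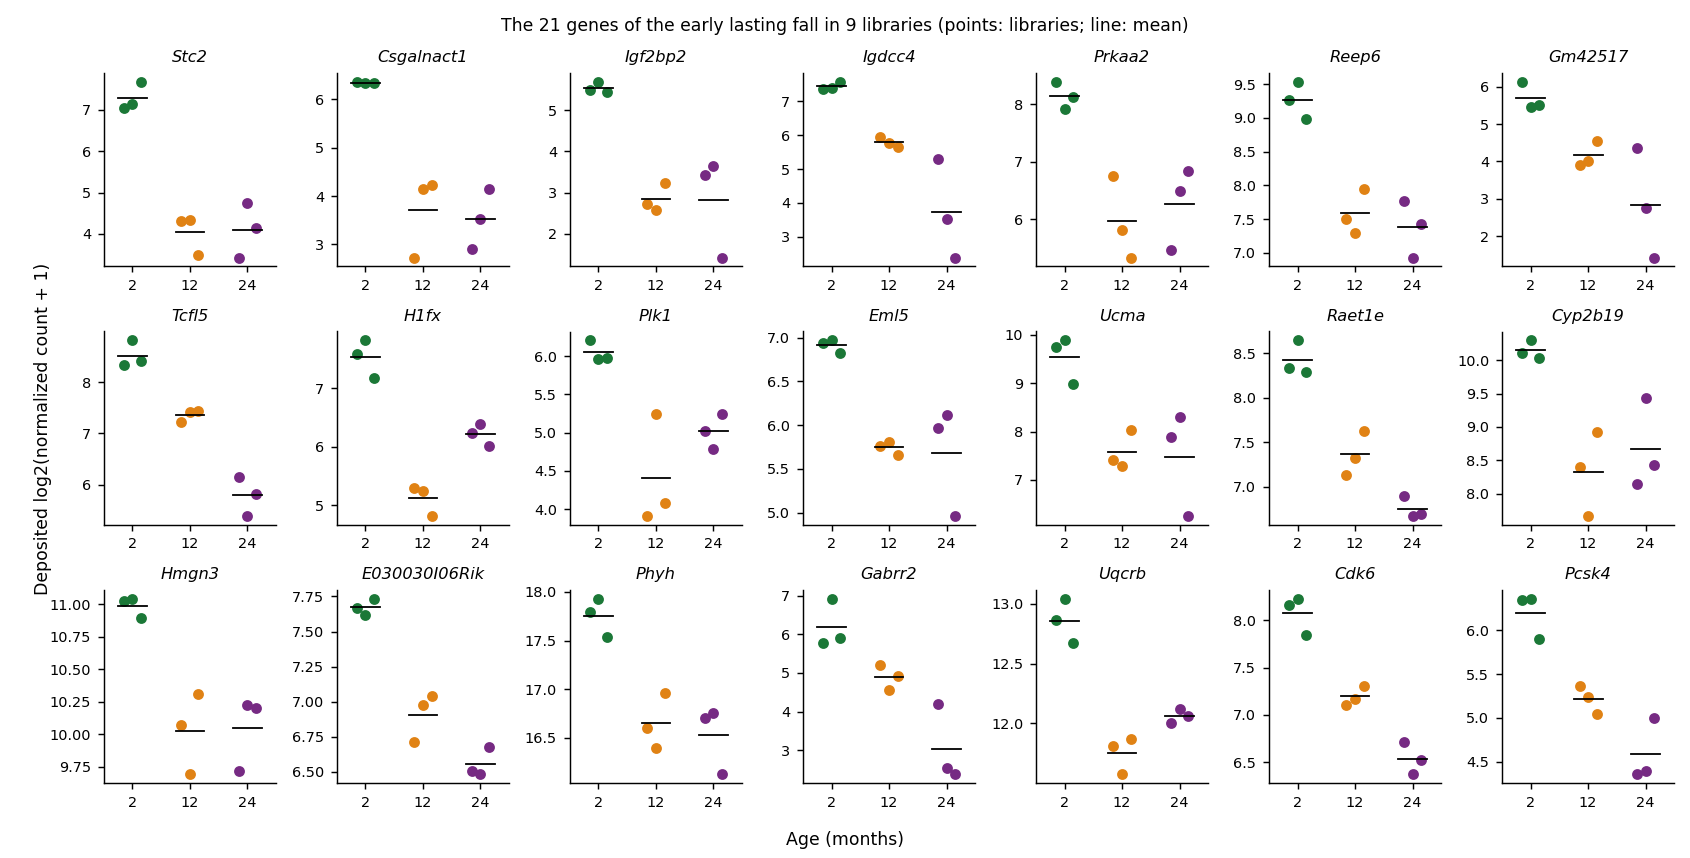
Deposited log2(normalized count + 1) (vertical axes, each with its own range) of the 21 members at 2, 12 and 24 months; points are the 3 libraries of an age and lines their means. In every panel the lowest 2-month library lies above the 6 older ones, as the choice required, while the 24-month libraries lie below those of 12 months for Tcfl5 and above them for H1fx.

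Among the genes of growth and the cell cycle, Igf2bp2 (ENSMUSG00000033581, chr16:22059009-22163299, minus strand) was left with few counts in the older gland. Its counts were 43, 41 and 36 in the 2-month libraries, 6, 6 and 9 in those of 12 months and 9, 12 and 2 in those of 24 months. The 3 young libraries held at least 36 counts each and no older library more than 12, and the older ages overlapped. Estimates were -2.81 (SE 0.58) at 12 months and -2.59 (SE 0.58) at 24 months, or 7.02-fold and 6.00-fold lower. Its relatives Igf2bp1 and Igf2bp3 were too low to test at any age, with means of at most 0.161 CPM. The imprinted long RNA H19 met the same gap (0.63) and mean but is not protein coding. Of 16 other tested genes in a list of imprinted and juvenile growth genes, 0 were lower and 1 higher at 12 months, and 1 was lower and 2 higher at 24 months, beside 2.52% of all tested genes lower and 5.4% higher at 12 months and 7.55% lower and 9.81% higher at 24 months. At an unadjusted p under 0.05 by edgeR 1 of the 16 was lower and 4 higher at 12 months, or 0 and 5 with library totals alone, and DESeq2 and limma voom called 0 lower. The genes called were Igf1, with 1.64 ± 0.410 (SD, n = 3 libraries), 3.64 ± 0.911 and 6.14 ± 0.874 CPM at the 3 ages (edgeR, Benjamini-Hochberg adjusted p = 0.0153 and 0.000665 against 2 months), Dcn (0.66, adjusted p = 0.0244 at 24 months) and Igf1r (-0.46, adjusted p = 0.0068 at 24 months). The list's median was -0.08 and 0.01, beside 0.01 and 0.01 over all tested genes.

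Plk1 had levels of 1.77, 1.47 and 1.5 CPM at 2 months, 0.339, 0.899 and 0.386 CPM at 12 months and 0.759, 0.642 and 0.886 CPM at 24 months. The 12-month replicate 2, at 0.899 CPM, stood above the other two of its age and was the highest of the 6 older libraries. Estimates were -1.53 (SE 0.40) at 12 months and -1.05 (SE 0.39) at 24 months, and without the salivary-rich libraries, of which that replicate is 1, the 12-month log2 ratio went from -1.54 to -2.16. Of the 28 other tested genes of a mitosis list, 26 had a negative estimate at 12 months with a median of -0.71, and with scaling by library totals alone 23 with a median of -0.42. By edgeR 1 of them, Ccnb1, was called lower (1.40 ± 0.428, 0.513 ± 0.170 and 1.03 ± 0.219 CPM, SD, n = 3; adjusted p = 0.0398 by edgeR), while DESeq2 called 9 lower and limma voom 0. Over all genes, edgeR called 377 lower (2.52% of those tested), DESeq2 637 and limma voom 452. With library totals alone edgeR called 0, and 7 of the 28 were lower at an unadjusted p under 0.05. At 24 months edgeR, DESeq2 and limma voom called 0 of the 28, 0 of them at an unadjusted p under 0.05, beside 7.55% of all tested genes called lower by edgeR. The median of the 28 was -0.28, or -0.03 with library totals alone. Over all tested genes the median was 0.01 at both older ages, or 0.31 with library totals alone. Of 29 tested genes of a DNA replication list, none of them members, 29 had a negative estimate at 12 months and 28 at 24 months. Their medians were -0.61 and -0.32, and edgeR called 1 and 0 of them lower. With library totals alone 23 and 16 were negative, with medians of -0.34 and -0.03. The genes of both lists had been put together with earlier results of these data known.

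Cdk6 (ENSMUSG00000040274, chr5:3341485-3531008, plus strand) stood at 6.90, 7.14 and 5.55 CPM at 2 months, 3.30, 3.50 and 3.82 CPM at 12 months and 2.51, 1.97 and 2.17 CPM at 24 months. The libraries of the 3 ages did not overlap, with estimates against 2 months of -0.88 (SE 0.17) at 12 months and -1.56 (SE 0.18) at 24 months. Cdk4, which does the same work with the same cyclins, had means of 48.0, 41.4 and 39.5 CPM, and its estimates of -0.21 and -0.28 became 0.09 and 0.00 with library totals alone. That scaling put the median of all tested genes at 0.31 at both older ages. The partners Ccnd1, Ccnd2 and Ccnd3 had estimates of 0.08 to 0.46. Per kilobase of exon, Cdk6 stood at 0.467, 0.253 and 0.159 CPM at the 3 ages.

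Tcfl5 (ENSMUSG00000038932, chr2:180621956-180642708, minus strand), a basic helix-loop-helix factor studied chiefly in germ cells, was at 7.77, 10.7 and 8.20 CPM at 2 months, 3.57, 4.13 and 4.16 CPM at 12 months and 1.70, 0.986 and 1.33 CPM at 24 months. Its ages formed 3 steps without overlap. H1fx (ENSMUSG00000044927, chr6:87980421-87981637, minus strand), the linker histone H1x, took another course, with 4.66, 5.37 and 3.45 CPM at 2 months, 0.926, 0.899 and 0.659 CPM at 12 months and 1.81, 1.99 and 1.53 CPM at 24 months. The 12-month libraries were the lowest and the 24-month libraries lay between them and the young ones, again without overlap. Of the other linker histones, H1f0 had means of 54.3, 64.6 and 72.1 CPM and Hist1h1c 14.3, 11.5 and 9.29 CPM. Hmgn3, which binds nucleosomes, had 50.6, 50.3 and 46.0 CPM at 2 months, 25.8, 20.2 and 30.7 CPM at 12 months and 20.3, 28.8 and 28.2 CPM at 24 months. The older libraries, from 20.2 to 30.7 CPM, overlapped, and the estimates were -0.94 (SE 0.16) at 12 months and -0.92 (SE 0.16) at 24 months. Those of Hmgn1, Hmgn2 and Hmgn5 ran from -0.33 to -0.06 at 12 months and from -0.54 to -0.39 at 24 months.

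The energy and lipid genes held the most abundant members. Phyh (ENSMUSG00000026664, chr2:4919019-4938730, plus strand) took 0.393 to 0.529% of all counts of a 2-month library, 0.243 to 0.320% at 12 months and 0.207 to 0.287% at 24 months. Its level was 5525, 5959 and 4588 CPM at 2 months, 2399, 2105 and 3093 CPM at 12 months and 2590, 2668 and 1719 CPM at 24 months. Per kilobase of exon that was 2830, 1338 and 1228 CPM, higher than any other member, with Uqcrb next at 205, 95.8 and 118. The estimates for Phyh were -1.08 (SE 0.21) at 12 months and -1.20 (SE 0.21) at 24 months, which is 2.12-fold and 2.30-fold lower. The older ages overlapped. The 9 other listed genes of this pathway and of peroxisomal import had estimates of -0.33 to 0.33 at 12 months and of -1.40 to 0.57 at 24 months. The lowest of these was Hacl1, the next enzyme, at 0.305, 0.241 and 0.115 CPM, while Pex7, which imports PHYH into the peroxisome, was at 5.45, 6.21 and 6.52 CPM.

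Prkaa2 (ENSMUSG00000028518, chr4:105029874-105109890, minus strand) stood at 8.12, 5.76 and 6.73 CPM at 2 months, 2.57, 1.35 and 0.954 CPM at 12 months and 1.05, 2.15 and 2.74 CPM at 24 months. The highest older library, at 2.74 CPM, lay well below the lowest young one, at 5.76 CPM, and the older ages overlapped. Estimates were -2.08 (SE 0.38) at 12 months and -1.78 (SE 0.37) at 24 months, or 4.23-fold and 3.44-fold lower. The other catalytic subunit gene, Prkaa1, had means of 7.74, 7.66 and 7.90 CPM. Of the level of both per kilobase, the share of Prkaa2 was 34.0% ± 2.36 in the young libraries (SD, n = 3), 11.2% ± 6.29 in those of 12 months and 12.8% ± 5.46 in those of 24 months. Within a library this share does not depend on scaling. It was 32.6 to 36.7% in the young libraries and 6.16 to 18.3% in the older ones. The regulatory subunits Prkab1, Prkab2, Prkag1 and Prkag2 had estimates of -0.23 to 0.46 at 12 months and of -0.37 to 0.74 at 24 months.

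Uqcrb (ENSMUSG00000021520, chr13:66900617-66905378, minus strand) was at 181, 201 and 158 CPM at 2 months, 86.4, 74.6 and 90.8 CPM at 12 months and 99.3, 107 and 103 CPM at 24 months. The lowest young and the highest older library were 158 and 107 CPM, and those of 24 months lay above those of 12 months without overlap. Estimates were -1.10 (SE 0.12) at 12 months and -0.80 (SE 0.12) at 24 months. The 8 other complex III genes had estimates of -0.58 to -0.04 at 12 months, all 8 negative, and of -0.65 to 0.12 at 24 months, 7 negative. With library totals alone the numbers were 5 and 4 of 8, and Uqcrb itself was at -0.80 and -0.50, beside a median of 0.31 over all tested genes at both ages. Elsewhere in the genome, 3 processed pseudogenes aligned to Uqcrb over 333 to 336 bases at 97.6 to 98.2% identity and held 29 to 175 counts over all libraries, beside 44725 of Uqcrb.

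**Figure D2:**
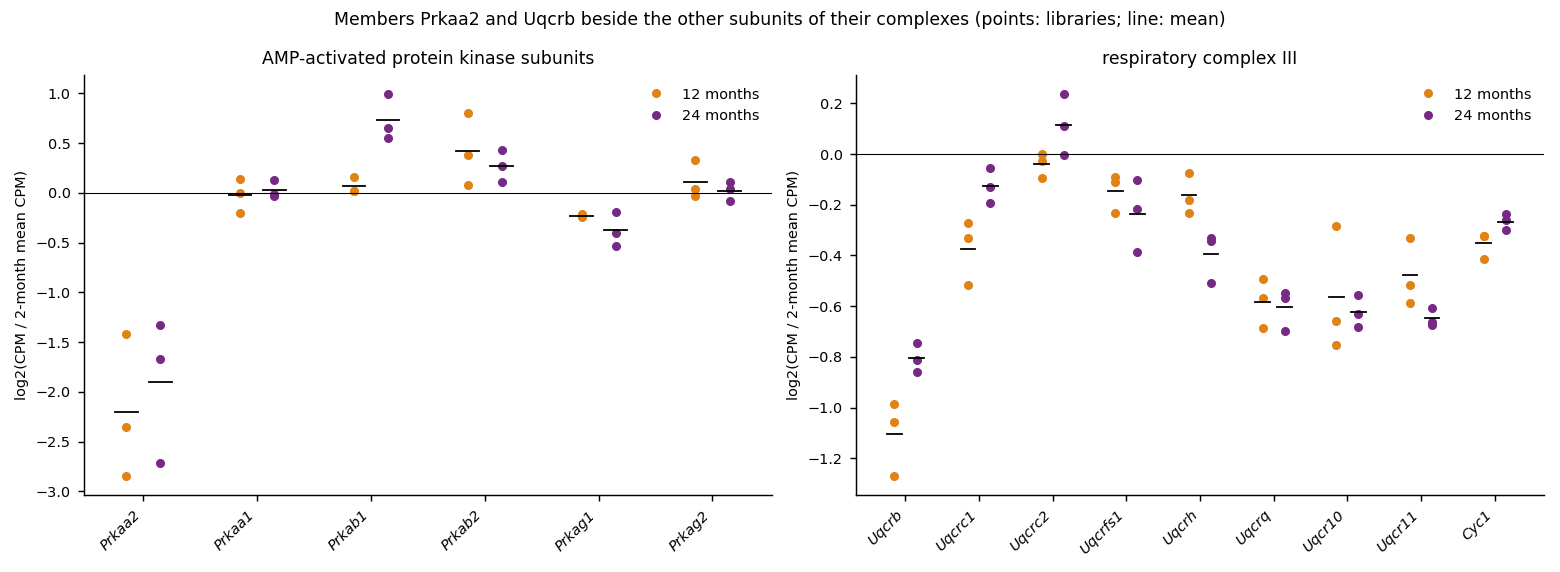
Log2 of CPM over the 2-month mean CPM (vertical axis) for the tested subunit genes of AMP-activated protein kinase and of respiratory complex III; points are libraries of 12 months (orange) and 24 months (purple) and lines their means. Prkaa2 lies far below 0 in all 6 older libraries while Prkaa1 lies near 0, and Uqcrb lies lower than the other complex III genes at 12 months.

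Reep6 (ENSMUSG00000035504, chr10:80329953-80336441, plus strand), which shapes endoplasmic reticulum membranes and is known from rod photoreceptors, had 14.9, 17.6 and 12.3 CPM at 2 months, 4.34, 3.82 and 5.98 CPM at 12 months and 5.24, 2.91 and 4.13 CPM at 24 months. The highest older library stood at 5.98 CPM and the lowest young one at 12.3 CPM. Estimates were -1.67 (SE 0.23) at 12 months and -1.87 (SE 0.23) at 24 months. Its most abundant relative Reep5 had means of 114.0, 90.6 and 93.7 CPM, with estimates of -0.33 and -0.28. With library totals alone these became -0.02 and 0.02, beside a median of 0.31 over all tested genes at both older ages. Reep6 was the lowest in the salivary-rich library at all 3 ages, and its log2 ratios were -1.66 and -1.80 without those libraries, beside -1.67 and -1.87.

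Cyp2b19, a cytochrome P450 of skin that turns arachidonic acid into epoxides, had 26.8, 29.98 and 25.2 CPM at 2 months, 8.13, 4.95 and 11.7 CPM at 12 months and 6.84, 16.6 and 8.30 CPM at 24 months. The older libraries were uneven, from 4.95 to 16.6 CPM, but all under the young minimum of 25.2. Estimates were -1.73 (SE 0.32) at 12 months and -1.37 (SE 0.32) at 24 months. Its relative Cyp2b10 had means of 59.2, 52.0 and 38.6 CPM. Of 45 tested xenobiotic and steroid enzyme genes, none of them members, 3 were lower and 2 higher at 12 months, beside 2.52% and 5.4% of all tested genes, and 3 lower and 10 higher at 24 months, beside 7.55% and 9.81%, by edgeR. With library totals alone the counts were 0 lower and 3 higher, and 1 lower and 15 higher. Eml5, a microtubule protein, had 2.96, 2.97 and 2.72 CPM at 2 months, 1.29, 1.35 and 1.20 CPM at 12 months and 1.49, 1.65 and 0.725 CPM at 24 months. Its older libraries overlapped. The 5 other tested Eml genes had estimates of -0.16 to 0.69 at 12 months, beside -1.17 for Eml5. The predicted gene Gm42517 had counts of 67, 35 and 38 in the 2-month libraries, 15, 18 and 24 in those of 12 months and 18, 6 and 2 in those of 24 months, and E030030I06Rik stood at 4.91, 4.67 and 5.12 CPM at 2 months, 2.51, 3.05 and 3.16 CPM at 12 months and 2.17, 2.13 and 2.44 CPM at 24 months.

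Against 2 months, the median estimate of the 21 members was -1.53 at 12 months and -1.69 at 24 months, beside 0.01 at both over all tested genes. The choice of members fixed this direction, and both comparisons use the same 3 young libraries. By size, the estimates ran from -3.27 to -0.75 at 12 months and from -3.35 to -0.80 at 24 months. Members just inside the gap were Pcsk4 (0.53), Cdk6 (0.54) and Uqcrb (0.55), and just outside it were Fkbp11 (0.48), 9530002B09Rik (0.47) and Sdc2 (0.46). By 2-month mean, Igf2bp2 (5.54), Gm42517 (5.70) and Plk1 (6.05) were just inside, and Pnlip (4.77), Sowaha (4.72) and Notum (4.28), an enzyme that inactivates Wnt proteins and had a gap of 3.06, were just outside. Scaling mattered for membership. With library totals alone, which moved the median of all genes to 0.31 at both older ages, 7 genes kept the gap of 0.5, namely Stc2, Csgalnact1, Igf2bp2, Igdcc4, Reep6, Gm42517 and Tcfl5, and the other 14 had a smaller gap while their estimates stayed negative.

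**Figure D3:**
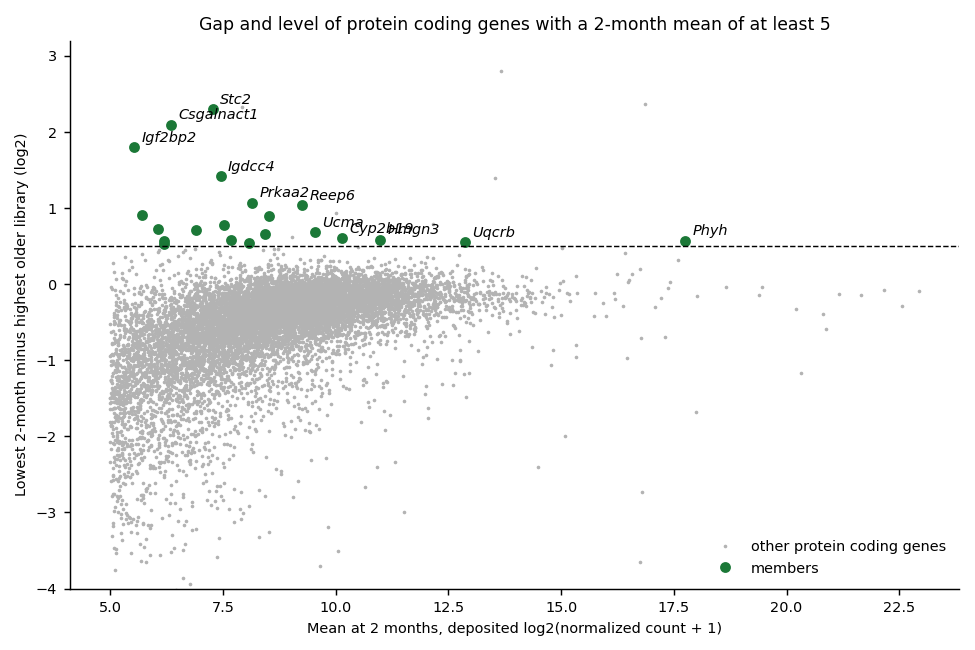
Lowest 2-month minus highest older library (vertical axis, log2) against the 2-month mean (horizontal axis, deposited log2 values) for 10737 protein coding genes with a mean of at least 5, of which 25 lie outside the drawn range; green points are the members and the dashed line is the gap of 0.5. The grey points above the line are the 8 genes left out by name.

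Between the older ages the members' estimates lay on both sides of 0. The median of the 21 was -0.12, with 11 negative and 10 positive estimates, beside -0.02 over all tested genes. By edgeR with Benjamini-Hochberg adjustment over all 14958 genes, 2 of 21 members (9.52%) were called at an adjusted p under 0.05, beside 4.39% of all tested genes. One direction at a time, 1 member was lower, beside 1.6% of all tested genes, and 1 higher, beside 2.79%. At an unadjusted p under 0.05 by edgeR, 5 members were lower and 2 higher, beside 18.9% of all tested genes in either direction. DESeq2, which called more genes than edgeR over the whole table, called 5 members lower (Tcfl5, Igdcc4, Raet1e, Gabrr2 and Cdk6) and 1 higher (H1fx). Its number of calls over all genes is given below without direction. These member counts therefore have no background share beside them and are a description only. From 12 to 24 months Tcfl5 fell by 1.57 on the log2 scale (SE 0.21, adjusted p = 0.00189), to a mean of 1.34 CPM from 3.95. H1fx rose by 1.10 (SE 0.26, adjusted p = 0.0333), to 1.78 CPM from 0.828. All 3 libraries of each age lay on the same side for both genes. Without the 3 salivary-rich libraries the estimates were -1.34 and 1.08 with adjusted p = 0.0519 and 0.206 by edgeR. That fit had 2 libraries per age, so a larger p may reflect fewer libraries and does not show a part of salivary tissue. The call of H1fx also ended when 1 of 5 older libraries was left out, namely any of 12 months or replicate 1 or 2 of 24 months (edgeR adjusted p = 0.066 to 0.0952).

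Next in order of p were Cdk6 at -0.67 (SE 0.18, adjusted p = 0.0526) and Raet1e at -0.64 (SE 0.18, adjusted p = 0.0654), which missed the threshold. Without the salivary-rich libraries, which left 2 per age, their edgeR adjusted p was 0.335 and 0.372. Igdcc4 at -1.68 (SE 0.53, adjusted p = 0.0961) and Gabrr2 at -1.76 (SE 0.56, adjusted p = 0.10) had larger estimates and larger errors. Both were called once replicate 1 of 24 months, their highest library of that age, was left out (-2.91, adjusted p = 0.00194, and -2.68, adjusted p = 0.0228). Leaving out any other library by itself gave no call, and over all 18 alternatives the estimates of Igdcc4 ran from -2.91 to -1.19 with adjusted p from 0.000109 to 0.471, and those of Gabrr2 from -2.68 to -1.41 with adjusted p from 0.0126 to 0.399. In 7 members (33.3%) all 24-month libraries lay below all 12-month libraries, beside 12.6% of all tested genes: Igdcc4, Tcfl5, Raet1e, E030030I06Rik, Gabrr2, Cdk6 and Pcsk4. In 2 members (9.52%), H1fx and Uqcrb, they lay above, beside 12.1% of all. The 12 others overlapped between 12 and 24 months, and for them a p that missed the threshold does not show equal levels. Estimates of Stc2 (0.11, SE 0.41), Prkaa2 (0.29, SE 0.38) and Igf2bp2 (0.23, SE 0.62) leave room for changes in either direction, while Hmgn3 (0.01, SE 0.16) and Phyh (-0.12, SE 0.21) were tighter.

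**Figure D4:**
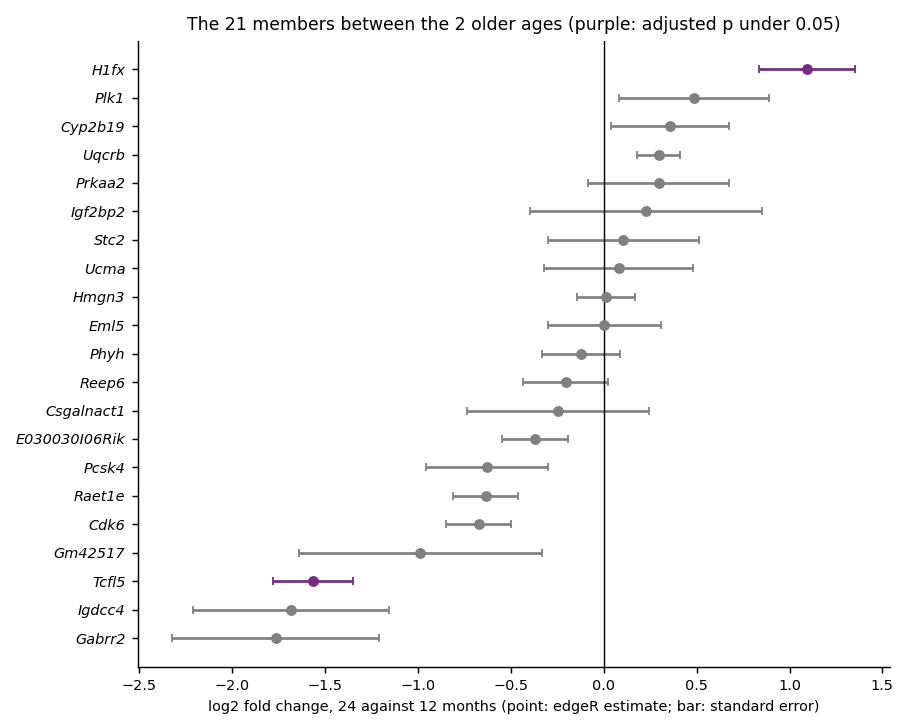
Log2 fold change of 24 against 12 months (horizontal axis) for the 21 members; points are edgeR estimates, bars their standard errors, and purple marks an adjusted p under 0.05. Tcfl5 lies at -1.57 and H1fx at 1.10, and the others fall on both sides of 0.

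The position of the genes was not used to choose them, and 6 of the 21 lay in 3 neighbouring pairs, with no other protein coding gene of GENCODE M21 between the 2 genes of a pair. Phyh and Ucma lie on chromosome 2 on the same strand, 37391 bases apart. Their libraries stood in the same order within all 3 ages: the library with less Phyh had less Ucma. At 24 months, for example, replicate 3 was the lowest for both, at 1719 and 1.81 CPM, and at 2 months replicate 3 again, at 4588 and 12.2 CPM. The pseudogene Gm13194, which lies between them 3443 bases past Phyh, met the gap too (0.79), with counts of 126, 81 and 105 in the young libraries, 61, 65 and 29 in those of 12 months and 32, 46 and 45 in those of 24 months. Among the other members, Igf2bp2 also had the library order of Phyh at all 3 ages, although it lies on chromosome 16, so the shared order is a description only. Phyh was 302 ± 65.0 times as high as Ucma in counts at 2 months (SD, n = 3), 543 ± 48.2 at 12 months and 585 ± 319 at 24 months.

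Reep6 and Pcsk4 lie on chromosome 10 on opposite strands, pointing away from each other, with 454 bases between them. They shared the library order at 0 of 3 ages, and the ratio of Reep6 to Pcsk4 was 8.48 ± 0.730, 5.48 ± 1.95 and 7.57 ± 3.08 at the 3 ages. Raet1e and E030030I06Rik also lie on chromosome 10 on opposite strands, 9298 bases apart. Their ratio was 1.70 ± 0.300, 1.38 ± 0.121 and 1.15 ± 0.153, and they had the same order at 1 of 3 ages. Of 26 other tested protein coding genes next to a member, edgeR called 0 at 12 against 2 months, beside 7.92% of all tested genes. At an unadjusted p under 0.05, 3 of the 26 were lower and 2 higher, and DESeq2 called 1 lower and limma voom 0. At 24 against 2 months edgeR called 2 lower (Mterf3 and Phip) and 2 higher (Plpp3 and Dpp8), beside 17.4% of all tested genes in either direction.

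**Figure D5:**
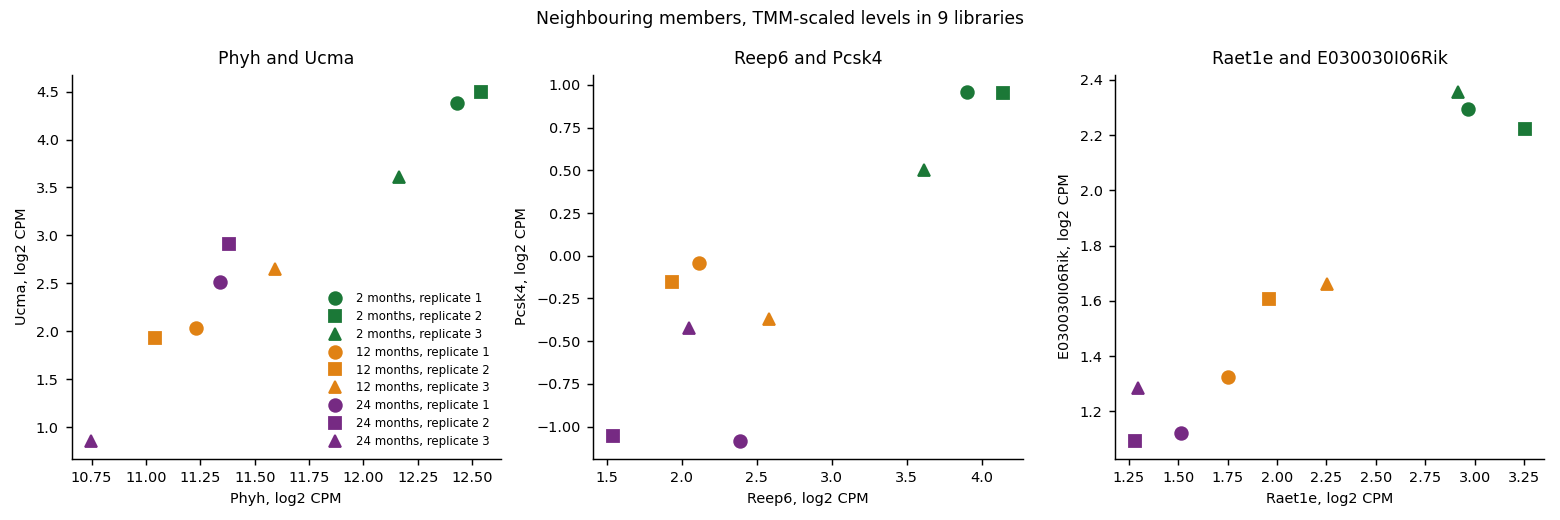
Log2 CPM of one gene against its neighbour in 9 libraries for the 3 neighbouring pairs; colours are ages (green 2, orange 12, purple 24 months) and shapes replicates. For Phyh and Ucma the libraries of each age keep the same order on both axes, and in all 3 panels the 2-month libraries lie apart at the upper right.

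Some members share their locus with other genes, and whether the counting used strand is not known from the sources. Eml5 overlaps Zc3h14 on the opposite strand over 949 bases, Zc3h14 having means of 22.9, 19.4 and 20.6 CPM, above those of Eml5. Tcfl5 overlaps Col9a3 over 234 bases, with 1.03, 1.27 and 1.22 CPM for Col9a3, and Gm42517 overlaps Gm10419 over 154 bases, with 0.496, 0.396 and 0.212 CPM. Uqcrb overlaps the protein coding Gm10767 on the opposite strand over 465 bases, with 0.276, 0.103 and 0.252 CPM for Gm10767. Reads in these overlaps could not be assigned to a strand here. Raet1e overlaps H60b and Raet1d on its own strand, over 130264 and 13588 bases of gene span, where strand would not separate the reads.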

How the data were processed

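Per the labels, total RNA of 9 lacrimal gland libraries was purified with an RNeasy Plus Micro kit and sequenced on a BGISEQ500RS as paired reads of 100 bp. The authors deposited counts, as whole reads assigned to each gene. Per the submitters' processing notes the tools were STAR, HTSeq, DESeq2, cutadapt and FastQC, and the assembly GRCm38, with no version or strand setting. The authors' log2 values equal log2(count / factor + 1), with DESeq2 size factors, for 100% of values within 1e-06.

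The members were chosen from the log2 values, and the members and gene lists were chosen with earlier results of these data known. Relatives of members were picked after the members' values were seen and carry no test. Counts were tested with edgeR 4.0.16 (R 4.3.3, TMM, filterByExpr with a minimum count of 10, quasi-likelihood F test), 9 libraries in 1 model of the 3 ages, adjusted by Benjamini-Hochberg over 14958 genes and called under 0.05. Apart from the main fit of 24 against 12 months, counts at an unadjusted p stand without the share of all tested genes, which limits their reading. Replicates varied by 21.2% (common biological coefficient of variation). On simulated data for 24 against 12 months, with 14958 genes, 81% of changes of 1 log2 unit and 99% of 2 were recovered. The changes were set only in genes above a mean count that many members, such as Stc2, Igdcc4, Igf2bp2 and H1fx, did not reach. The rates do not apply to those members. Rows without a gene name held at most 0.00105% of a library.

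Named genes followed a rule: the 12 widest gaps, the 10 highest 2-month means, the smallest p between the older ages, list members, those next to a threshold, and up to 3 list genes with the smallest p. Others were chosen after their values were seen. Promoters came from RefSeq, positions from GENCODE M21 and alignments from BLAST+ 2.17.0. Limma 3.58.1, DESeq2 1.42.0, other scalings and filters, a replicate block and each library left out were alternatives. A fit without the 3 salivary-rich libraries (2-month replicate 3, 12-month replicate 2, 24-month replicate 2) was added after seeing the data. It left 2 libraries at each age and kept 2-month replicate 2, which also held salivary transcripts.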

Additional observations from a re-analysis of the deposited data

Results flagged for a closer look

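For 2 members the change after 2 months differed between the older ages by a test of that difference (edgeR, 24 against 12 months). Tcfl5 was lower at 24 than at 12 months, with a log2 fold change of -1.57 (adjusted p = 0.00189). H1fx was higher at 24 than at 12 months, by 1.1 (adjusted p = 0.0333). Markers of several cell types differed between these ages by the same test. At 24 months 7 of 10 B cell and 2 of 4 skeletal muscle markers were lower. Higher were 3 of 9 myoepithelial, 4 of 10 fibroblast, 2 of 7 Harderian gland and 1 of 10 macrophage markers. The myoepithelial sums were, like H1fx, lowest in the 12-month libraries. The part of these cells in either result was not tested.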

How the results depend on the processing

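The number of members was 6 with a gap of 1, 84 with a gap of 0.25 and 7 with library totals alone, and 21 to 43 with each library left out in turn, most of all without replicate 1 (43) or 3 (38) of 2 months or replicate 3 of 12 months (32). Leaving out a library loosens the rule by its construction. Members called in 24 against 12 months numbered 2: they were 1 with library totals alone and with only the libraries compared, 4 without a filter on low counts, 6 by DESeq2 (5 lower, 1 higher), 0 by edgeR without the 3 salivary-rich libraries (6 at an unadjusted p under 0.05), and 1 to 3 with each library left out. The fit with a replicate block, for which same-numbered libraries shared only a number (correlations of deviations -0.18 to 0.05, and 0 of 9 libraries closest to its own number), gave 2 members, and 406, 700 and 1883 genes in 24 against 12, 12 against 2 and 24 against 2 months beside 656, 1185 and 2597 without it.

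Over all genes, 24 against 12 months gave 340 with library totals alone, 1486 without a filter, 1199 by DESeq2, 170 without the salivary-rich libraries and 312 to 699 with each library left out. For 12 against 2 months it was 2025 without a filter, 127 without the salivary-rich libraries and 435 to 1285 with each left out, and for 24 against 2 months 625 and 1160 to 2620. Listed genes that are no members and were lower numbered 28 and 47 of 741, and 8 and 10 with library totals alone. With that scaling the genes called lower were 80 of 1693 at 12 months and 192 of 2817 at 24 months, beside 377 of 1185 and 1130 of 2597. No estimate of Tcfl5 or H1fx changed sign. H1fx lost its call with totals alone (adjusted p = 0.0807), limma voom (0.0723) and only the libraries compared (0.0697).

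The cause of these differences was not tested. Depth limits the low members: Igf2bp2, Gabrr2, Gm42517, Csgalnact1 and Stc2 rest on 21 to 96 counts over the 3 libraries of an older age. At 1 of the older ages the same holds for Igdcc4 (51 counts at 24 months), Plk1 (76 at 12 months) and Pcsk4 (76 at 24 months).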
